A study of Mus musculus with 4 samples.

Results

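The genes described here encode the respiratory chain and ATP synthase of mitochondria. They were chosen by a rule that goes by symbol alone, but the choice was made with earlier results of these data known. The rule takes every gene on the array's annotation that begins with Nduf followed by a, b, c, s or v. It also takes every gene that begins with Uqcr, with Atp5, or with Cox followed by 4 to 8, together with Sdha, Sdhb, Sdhc, Sdhd and Cycs. The rule found 91 genes with a probe set of their own among 18193 such genes. Of these, 34 encode complex I subunits, 8 complex I assembly factors (Ndufaf1 to Ndufaf8), 4 complex II, 8 complex III, 11 the general form of complex IV or its partners, 8 complex IV forms known from other tissues, 17 ATP synthase and 1 cytochrome c. A further 8 names, among them Ndufa11 and Ndufs6, were only on probe sets shared by several genes and were left out.

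The respiratory chain passes electrons from NADH at complex I and from succinate at complex II through complex III and cytochrome c to oxygen at complex IV, and ATP synthase makes ATP from the proton gradient that the chain builds. Most subunits are encoded in the nucleus, imported and joined to a few made from mitochondrial DNA. Macrophages activated by interleukin-4 (IL-4), the cytokine that drives alternative activation, are known for their use of oxidative metabolism.

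Macrophages were drawn into the peritoneal cavity of mice with thioglycolate and kept for 18 h on permanox slides. RNA was measured from wild type cells left untreated, wild type cells with IL-4, cells labelled Dap12-KO left untreated and cells labelled Dap12-KO with IL-4, on 1 array each. DAP12, encoded by Tyrobp, is an adaptor that passes receptor signals on, and the study asked what its loss does at rest and in the response to IL-4. The labels give neither the mouse strain, the animals' age and number, nor how the allele was made. With 1 array per group no difference between 2 arrays has a replicate check or a p-value, and precision is limited by how few arrays there are. The values also come from whole cell samples, in which fewer cells of a type and less RNA per cell cannot be told apart.

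All values are log2, and each gene is read from its brightest probe set of its own. A gene entered a comparison when at least 1 of its 4 values was 6.39 or more, which is the median over the whole table; 12767 genes did. Tyrobp itself read 14.39 and 14.13 on the wild type arrays and 14.03 and 13.27 on those labelled Dap12-KO; where its probe set lies relative to the altered part of the gene is not given in the sources used here, so it does not check the label. Arg1, an IL-4 target, read 11.31 and 14.66 without and with IL-4 in wild type and 12.45 and 14.37 under the Dap12-KO label. All 8 macrophage markers were above the floor on all 4 arrays. The IL-4 array labelled Dap12-KO stood apart, since the middle 50% of its values spanned 2.54 log2 units against 3.19 to 3.25 on the others. Counts and medians that use it are therefore given also as a level-adjusted difference, which is a gene's difference minus the median difference of the 300 non-member genes nearest to it in mean level, and, where it matters, after cyclic loess, a rescaling of the arrays against each other along the level.

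Of the 91 genes, 88 were above the floor. Cox7a1, Cox7b2 and the only probe set of Ndufb4 alone were below it on all 4 arrays; probe sets that Ndufb4 shares with near copies were not used for it. The 88 genes were bright, with an array median of 11.53, 11.58 and 11.52 on the first 3 arrays and 11.11 on the narrower one. The probe sets of 19 of the 91 genes carry a suffix that marks possible cross-hybridisation. On these arrays 52 genes had more than 1 probe set of their own, which gives a view of how well a difference repeats within 1 RNA sample but not between samples.

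4 stretches of sequence before the start of member genes are shown because they belong to the members on which the results turn: Ndufs8 and Cox7a2l, the lowest and the highest general subunit when untreated Dap12-KO was set against wild type, and Cox6a1 and Cox8b, a general and a tissue form of complex IV subunits that went apart on the Dap12-KO array given IL-4. Each is the 250 bases before the annotated start, 5′ to 3′ on the gene's strand, from RefSeq on GRCm38.p6, and none overlaps an annotated gene. They lie on the minus strand at chr19:3912775-3913024 (Ndufs8), chr17:83514334-83514583 (Cox7a2l), chr5:115348959-115349208 (Cox6a1) and chr7:140900447-140900696 (Cox8b). Capitals mark a match, on either strand, to TGCGCA, the core bound by NRF1, to CCGGAAG, an ETS core of the kind bound by GABP, to AAGGTCA, a core of sites for estrogen-related receptors, or to TGACGTCA, the cAMP response element.
Ndufs8: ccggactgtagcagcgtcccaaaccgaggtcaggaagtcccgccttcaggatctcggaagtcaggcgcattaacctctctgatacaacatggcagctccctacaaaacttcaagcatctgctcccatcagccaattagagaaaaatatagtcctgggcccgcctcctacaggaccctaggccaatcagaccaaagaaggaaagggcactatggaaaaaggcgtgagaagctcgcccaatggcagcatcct
Cox7a2l: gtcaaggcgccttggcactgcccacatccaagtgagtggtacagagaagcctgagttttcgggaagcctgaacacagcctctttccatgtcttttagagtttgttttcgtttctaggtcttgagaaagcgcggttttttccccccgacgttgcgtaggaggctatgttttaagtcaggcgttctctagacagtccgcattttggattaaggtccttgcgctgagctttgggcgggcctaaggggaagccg
Cox6a1: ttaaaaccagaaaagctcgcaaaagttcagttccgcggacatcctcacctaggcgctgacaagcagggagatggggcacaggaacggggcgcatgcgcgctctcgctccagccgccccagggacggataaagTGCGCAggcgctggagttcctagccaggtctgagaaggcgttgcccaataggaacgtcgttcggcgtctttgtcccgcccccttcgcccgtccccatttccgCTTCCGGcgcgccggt
Cox8b: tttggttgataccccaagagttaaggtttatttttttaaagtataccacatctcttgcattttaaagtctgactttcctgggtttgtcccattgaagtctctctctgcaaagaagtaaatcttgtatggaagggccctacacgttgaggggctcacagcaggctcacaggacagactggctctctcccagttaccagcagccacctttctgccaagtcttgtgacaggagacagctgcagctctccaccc
The Cox6a1 stretch held TGCGCA and, on the other strand, CCGGAAG, and the other 3 held none of the 4 motifs. A stretch of this kind was at hand for 75 of the 91 genes. TGCGCA was found in 14 of the 75 (18.7%), against 7.36% of all 27025 genes with such a stretch, and 6.43% of the 32851 stretches. CCGGAAG was found in 14 of the 75 (18.7%), against 7.83% of all genes and 6.91% of stretches. Both were in 4 of the 75, Atp5l, Cox6a1, Ndufb6 and Sdhd, against 0.944% of all genes. AAGGTCA was in 5 of the 75 against 4.7% of all genes and 4.08% of stretches, and TGACGTCA in 4, which were Cycs, Ndufa10, Ndufb2 and Uqcrfs1, against 1.77% and 1.55%. None of the 4 motifs was in the 4 tissue forms that had a stretch. No 2 matches in the printed stretches overlapped. The 14 genes with TGCGCA had a median difference of −0.22 between untreated Dap12-KO and wild type, and the 61 others −0.14. For CCGGAAG the medians were −0.16 with and −0.15 without, and for AAGGTCA and TGACGTCA −0.15 both with and without. These medians were not limited to genes above the floor, and those with TGCGCA or AAGGTCA include Ndufb4, which was below it. Whether a motif goes with the difference was not tested. These letters describe the sequence and do not show that a factor binds.

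In wild type cells IL-4 moved these genes little. None of the 88 was 2-fold higher with IL-4 and none 2-fold lower, where 1.21% of all 12767 genes were 2-fold higher and 1.25% lower. Their differences ran from −0.36 to 0.23 with a median of −0.01, and the median over all genes was −0.03. The standard deviation over the 88 genes was 0.13, against 0.37 over all genes and 0.35 over the 1424 other genes in the middle 50% of the members' level range (10.95 to 12.64). Of those 1424 genes 9 were 2-fold higher and 23 lower.

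By complex, level-adjusted medians for IL-4 in wild type were 0.07 for the 33 complex I subunits, 0.02 for the 8 assembly factors, 0.03 for complex II, 0.04 for complex III, −0.01 for complex IV and 0.03 for ATP synthase, and the standard deviation of differences within each of these groups was 0.07 to 0.18. ATP synthase was the tightest, with all 17 genes between −0.16 and 0.09. The highest member was Ndufs7, an iron-sulfur subunit near the quinone site of complex I, which read 11.78 untreated and 12.01 with IL-4, or 1.18-fold higher. Ndufa12 (11.94 and 12.16) and Ndufa6 (10.96 and 11.18), both accessory subunits of complex I, followed with 0.22 each. At the other end stood Cox8c, the testis form of a complex IV subunit, at 8.61 and 8.25, the assembly factor Ndufaf3 at 8.80 and 8.48, and Ndufa4l2, a relative of Ndufa4, at 6.30 and 6.01. These differences were close to those between probe sets of one gene: of 50 members with more than 1 probe set above the floor, 26 had the same sign on all of them, and the median range between probe sets was 0.15.

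The catalytic and core subunits are given next on all 4 arrays. In complex I, Ndufv1, which takes electrons from NADH, read 11.55 untreated and 11.32 with IL-4 in wild type, and 11.47 and 10.97 under the Dap12-KO label. Ndufv2, its iron-sulfur partner, read 11.94, 12.12, 11.58 and 11.32 on the same arrays in that order. Ndufs1, the largest iron-sulfur subunit, read 10.60, 10.67, 10.64 and 10.20, and Ndufs3 read 11.12, 11.19, 11.08 and 10.77. In each of these 4 the Dap12-KO array given IL-4 was the lowest, and the other 3 arrays changed places from gene to gene.

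In complex III the core proteins Uqcrc1 and Uqcrc2 read 12.02, 12.07, 11.71 and 11.67, and 11.45, 11.55, 11.48 and 10.82. Uqcrfs1, the Rieske protein that passes electrons on to cytochrome c1, read 11.77, 11.82, 11.62 and 11.32. Uqcrb, a small subunit, read 14.34, 14.36, 14.40 and 14.03. In the head of ATP synthase Atp5a1 read 13.45, 13.46, 13.30 and 13.08, Atp5b read 12.84, 12.93, 12.54 and 12.40, and Atp5c1 read 13.25, 13.26, 13.27 and 12.91. Both wild type values were above both Dap12-KO values for Uqcrc1, Uqcrfs1, Atp5a1 and Atp5b, and not for Uqcrc2, Uqcrb or Atp5c1. This held for 54 of the 88 members (61.4%), against 31.8% of all genes and 46.6% of the 1424 genes of like level. The pattern uses the narrower array, on which 91.3% of the 1424 read below wild type with IL-4. It was counted on the deposited values only. After cyclic loess 57 of the 88 members (64.8%) read higher under the Dap12-KO label with IL-4, against 59.0% of all genes. The reverse, both Dap12-KO values above both wild type values, was found for 3 members (3.41%), against 20.8% of all genes and 3.65% of the 1424. The 3 were Cox6b2, Cox8b and Ndufa4l2, tissue forms of complex IV. Both wild type values of each lay under the floor, so they entered only through Dap12-KO arrays. Their pattern thus follows in part from the floor and supports nothing by itself. In the ring, Atp5g1 read 10.29, 10.30, 9.82 and 9.44, Atp5g2 read 10.77, 10.75, 10.60 and 10.30, and Atp5g3 read 13.85, 13.81, 13.74 and 13.45, each with both wild type values above both others.

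**Figure D1:**
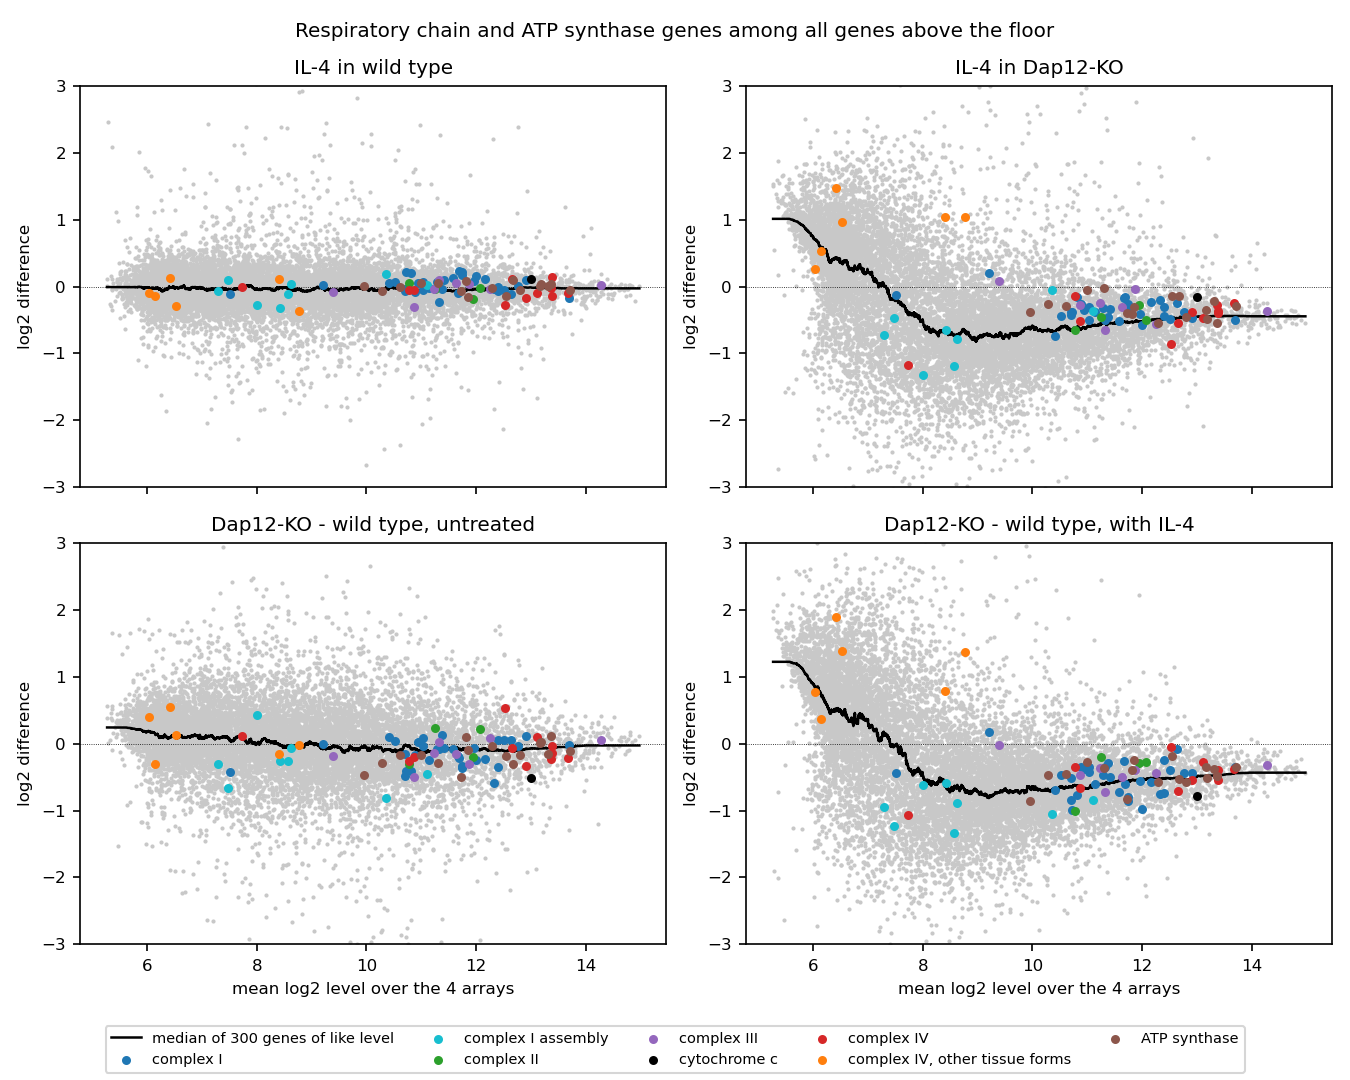
Log2 difference of each gene (vertical axis) against its mean log2 level over the 4 arrays (horizontal axis) in 4 comparisons; grey points are all other genes above the floor, coloured points the 88 members by complex, and the black line the median of the 300 non-member genes of like level. Members lie near 0 with IL-4 in wild type (−0.36 to 0.23), while in both comparisons with the IL-4 array labelled Dap12-KO the line itself bends and most members follow it; 15 to 30 genes per panel lie beyond the axis limit of 3.

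Untreated cells labelled Dap12-KO were set against untreated wild type cells to ask what the genotype does at rest. Of the 88 genes 63 were lower (71.6%) and 25 higher under the Dap12-KO label. Of all genes 47.3% were lower, and of the 1424 genes of like level 59.6%. The members had a median of −0.15 where all genes had 0.03. None was 2-fold higher (3.12% of all genes) and none 2-fold lower (3.41%). The 1424 other genes of the members' middle level range had a median of −0.09, so that the level-adjusted median of members was −0.07, with 51 genes below 0 and 37 above. After cyclic loess the deposited split of 63 against 25 became 49 against 39 (55.7% lower, against 40.6% of all genes). The median was then −0.06 where all genes had 0.09. Members again varied less than other genes, with a standard deviation of 0.24 against 0.55 over all genes and over the 1424.

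By complex, level-adjusted medians for untreated Dap12-KO against wild type were 0.01 for complex I, 0.09 for complex II, −0.06 for complex III, −0.08 for complex IV and −0.07 for ATP synthase. The 8 assembly factors of complex I had a lower level-adjusted median, −0.29, and 7 of the 8 were below 0. Single genes at both ends are described next by their role.

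Ndufaf4, an assembly factor of complex I, was the lowest member by difference. It read 10.73 and 10.92 on the wild type arrays without and with IL-4, and 9.92 and 9.87 on the arrays labelled Dap12-KO. Both wild type values were above both others, and the untreated difference was 1.76-fold. A second probe set read 9.65, 9.78, 8.88 and 7.68 in the same order, with an untreated difference of −0.77. Ndufaf6, another assembly factor, read 7.90 and 8.0 in wild type and 7.23 and 6.76 under the Dap12-KO label. Its wild type values were also above both others, as for 31.8% of all genes. Both genes were named for their low untreated difference, so this pattern is no separate support for it. Ndufaf8 (11.42 and 10.97 untreated), Ndufaf5 (7.64 and 7.33), Ndufaf1 (9.03 and 8.77), Ndufaf3 (8.80 and 8.54) and Ndufaf2 (8.84 and 8.78) were lower by less. Ndufaf7, a methyltransferase of mitochondria, was the exception, with 8.20 in wild type and 8.62 under the Dap12-KO label.

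Among the 6 core subunits of complex I measured, which carry the flavin and iron-sulfur clusters, Ndufs8 was lowest. It read 12.69 and 12.65 in wild type and 12.10 and 11.89 under the Dap12-KO label. All 6 of its probe sets were lower, by −0.30 to −0.65. Ndufv2 had an untreated difference of −0.36 and Ndufs7 of −0.21, whereas Ndufv1 (−0.08), Ndufs3 (−0.04) and Ndufs1 (0.03) lay close to 0. The 6 core subunits had a median of −0.15. Of the 27 accessory subunits above the floor 19 were lower and 8 higher, from −0.48 for Ndufs4 to 0.13 for Ndufv3. Ndufs4 was lower on all 4 of its probe sets, by −0.48 to −0.78. Ndufab1, the acyl carrier protein of mitochondria, was lower on its 3 probe sets above the floor, by −0.41 to −0.64.

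Complex II, which links the tricarboxylic acid cycle to the chain, was split. Sdha, the flavoprotein that oxidises succinate, read 12.10 in untreated wild type and 12.32 under the Dap12-KO label, and Sdhd, one of the membrane anchors, read 11.26 and 11.49. Sdhb, the iron-sulfur subunit, read 12.15 and 11.95, and Sdhc, the other anchor, 11.07 and 10.77. The 4 differences of 0.21, 0.23, −0.20 and −0.30 had a standard deviation of 0.28. Probe sets of Sdha did not share a sign, with 0.21 and 0.51 on the bright ones and −0.17 on a dim one.

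In complex III the 8 subunits ran from −0.50 for Uqcrq to 0.08 for Uqcrh. The core proteins Uqcrc1 and Uqcrc2 had differences of −0.31 and 0.03, and Uqcrfs1 −0.15. The 2 other probe sets of Uqcrq above the floor gave −0.12 and 0.03. Cycs, the soluble electron carrier that also sets off apoptosis when released, read 13.26 and 13.38 in wild type and 12.76 and 12.60 under the Dap12-KO label. Both wild type values were above both others, and the untreated difference was 1.42-fold. Its 2 other probe sets above the floor gave −0.77 and −0.79.

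Cox7a2l was the highest general subunit. It is a relative of the complex IV subunit Cox7a2 that joins complexes III and IV into a supercomplex. It read 12.55 in untreated wild type, 12.27 with IL-4, 13.07 untreated under the Dap12-KO label and 12.22 there with IL-4, so only the untreated Dap12-KO array stood high, by 1.44-fold. Its 2 other probe sets had untreated differences of 0.63 and 0.68; one of them stayed high with IL-4 (12.21 and 12.02), the other did not (11.22 and 10.34). Cox7a2 itself read 13.22 and 12.89 untreated. The other general subunits of complex IV ranged from −0.25 for Cox8a to 0.11 for Cox7c. In ATP synthase 13 of 17 genes were lower. Of the catalytic head, Atp5b (the catalytic beta subunit) had a difference of −0.30, Atp5a1 (alpha) −0.15, Atp5c1 (gamma, the rotating stalk) 0.02 and Atp5e (epsilon) −0.50, the lowest of the complex. The 3 genes for the same mature ring protein differed, with −0.47 for Atp5g1, −0.17 for Atp5g2 and −0.11 for Atp5g3.

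Different probe sets gave the same direction for most members in this comparison. Of 50 members with more than 1 probe set above the floor 41 had the same sign on all, the median range was 0.13, and none had a range of 2-fold. Markers of other cells also differed between the untreated arrays. All 7 markers of resident cavity macrophages were higher under the Dap12-KO label, 4 of them 2-fold, and their summed linear level was 4260, 4360, 9390 and 5880 on the untreated and IL-4 arrays of wild type and then the same pair labelled Dap12-KO. For B cell markers, 3 of 4 above the floor on all arrays, the sums were 976, 1200, 1780 and 1120. For mast cell markers, 3 of 5, they were 511, 458, 1030 and 576. For mesothelium and fibroblast markers, 2 of 6, they were 713, 625, 434 and 586. For neutrophil markers, 1 of 7, they ran from 903 to 1440, for eosinophil markers, 1 of 4, from 248 to 340, and for T and NK cell markers, 1 of 4, from 245 to 324. The part of any of these in the members' differences was not tested.

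**Figure D2:**
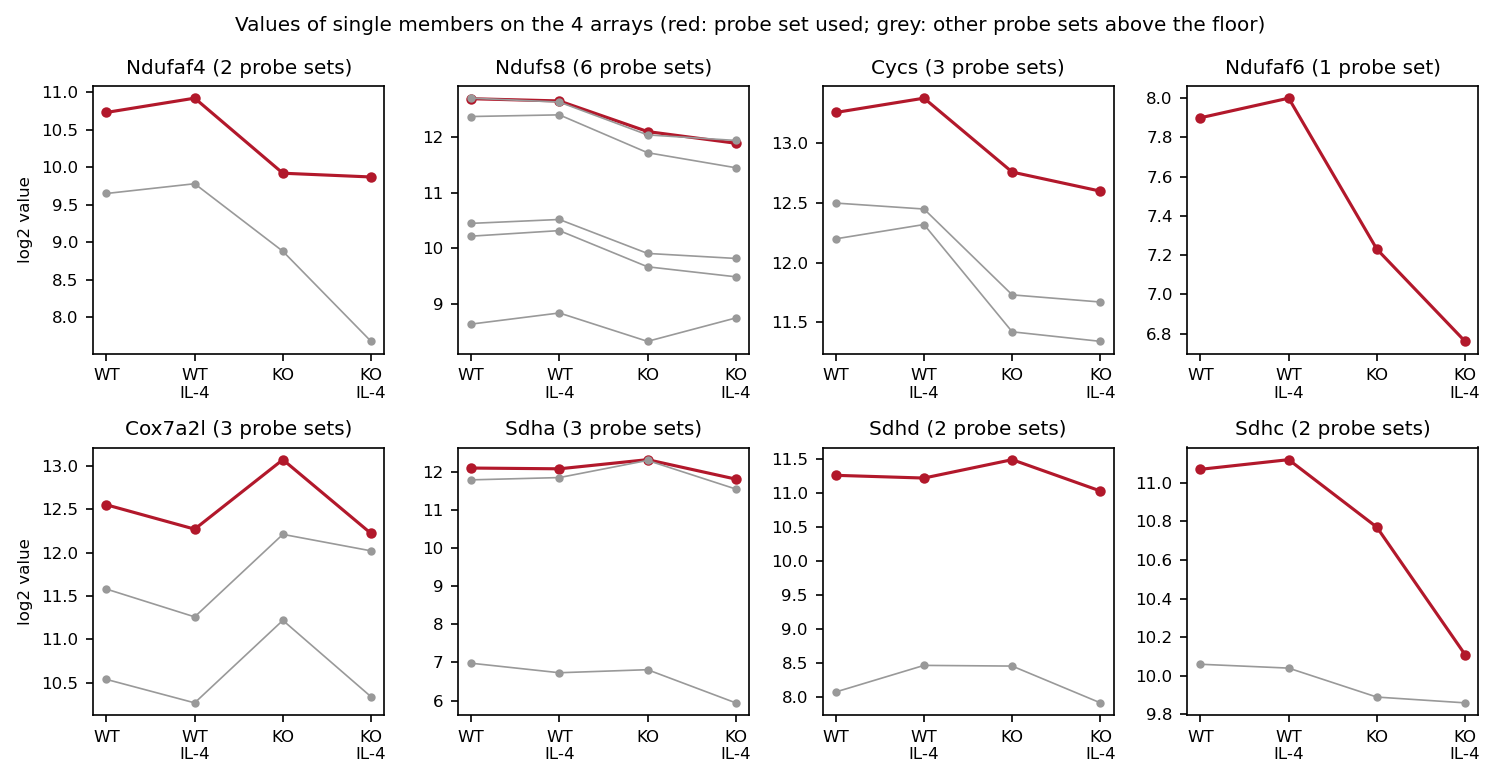
Log2 values (vertical axes, which differ in span) of 8 members on the 4 arrays; red is the probe set used, grey the gene's other probe sets above the floor, and lines join the values of 1 probe set. Ndufaf4, Ndufs8, Cycs and Ndufaf6 read lower on both arrays labelled Dap12-KO on the probe set used, and Cox7a2l read highest on the untreated Dap12-KO array on all 3 of its probe sets.

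Cells labelled Dap12-KO were also compared with and without IL-4. Of the 88 members 80 read lower with IL-4 (90.9%), as did 66.1% of all genes and 89.6% of the 1424 genes of like level. The members had a median of −0.36, all genes −0.40 and the 1424 genes −0.53. Of the 88 genes 3 were 2-fold higher (8.04% of all genes) and 3 were 2-fold lower (17.6%). Against genes of like level the members were higher by a median of 0.17, with 65 above 0. After cyclic loess the deposited median of −0.36 turned to 0.20, and 68 of 88 genes (77.3%) were above 0, against 56.2% of all genes. There 3 members were 2-fold higher (9.79% of all genes) and none 2-fold lower (5.91%). The sign of the change in level of the complexes in this comparison thus turned with the scaling. Level-adjusted medians were 0.21 for complex I, 0.07 for complex II, 0.27 for complex III, 0.07 for complex IV and 0.22 for ATP synthase, and −0.17 for the assembly factors.

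A pair of general subunits went against the rest. Ndufs5, an accessory subunit of complex I, read 9.15, 9.18, 9.15 and 9.35 on the 4 arrays, given as wild type without and with IL-4 and then Dap12-KO without and with it. A probe set that Ndufs5 shares with Ndufs5-ps read 10.50, 10.47, 10.20 and 9.59, a difference of −0.62 for IL-4 under the Dap12-KO label. Uqcr10, a small subunit of complex III, read 9.47, 9.39, 9.29 and 9.38, but its 2 other probe sets were lower with IL-4 under the Dap12-KO label, by −0.25 and −0.75. Level-adjusted differences on the probe sets used were 0.94 for Ndufs5 and 0.81 for Uqcr10. The 3 genes 2-fold lower were Cox7c, Ndufaf1 and Ndufaf7. Cox7c, a small subunit of complex IV, read 7.97, 7.97, 8.08 and 6.90. Ndufaf1, which helps build the membrane arm of complex I, read 9.03, 8.92, 8.77 and 7.59. Ndufaf7 read 8.20, 7.92, 8.62 and 7.30. In all 3 the IL-4 array labelled Dap12-KO was the low one. Their level-adjusted differences were −0.78, −0.46 and −0.77, and none of them was 2-fold lower after cyclic loess.

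The tissue forms of complex IV went the other way on that array. Cox6a2, the heart and muscle form of Cox6a1, read 8.19, 8.30, 8.04 and 9.08, and its second probe set 6.01, 6.02, 5.93 and 6.71. Cox8b, the heart and muscle form of Cox8a, read 5.74, 5.87, 6.28 and 7.76. Cox8c read 8.61, 8.25, 8.59 and 9.63, but its second probe set read 6.54, 6.32, 5.94 and 5.07, so that the direction rests on which probe set is read. Ndufa4l2 read 6.30, 6.01, 6.43 and 7.39. The other forms were dim throughout: Cox4i2 read 6.20, 6.06, 5.90 and 6.42, Cox6b2 read 5.78, 5.68, 6.19 and 6.45, Cox7a1 ran from 5.23 to 5.91 and Cox7b2 from 4.46 to 4.72. Cox4i2, Cox6b2 and Cox8b reached the floor on the Dap12-KO array given IL-4 alone, so that their being higher there follows from the floor. Ndufa4l2 reached it on the Dap12-KO arrays alone. Dim genes in general read higher on that array. Level-adjusted differences for IL-4 under the Dap12-KO label were −0.03 for Cox4i2 and −0.45 for Cox6b2, 0.60 for Ndufa4l2, 1.05 for Cox8b, and 1.72 each for Cox6a2 and Cox8c, whose neighbours in level read lower.

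The matching general forms were bright on every array and lower on that one. Cox6a1 read 13.86, 13.77, 13.65 and 13.40, Cox8a 10.95, 10.90, 10.69 and 10.56, and Ndufa4 11.11, 11.06, 10.91 and 10.39. Cox4i1 read 13.21, 13.12, 13.31 and 12.85 and Cox6b1 13.59, 13.44, 13.45 and 13.05. Levels of different probe sets are not set against each other here, only the course of each over the arrays.

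**Figure D3:**
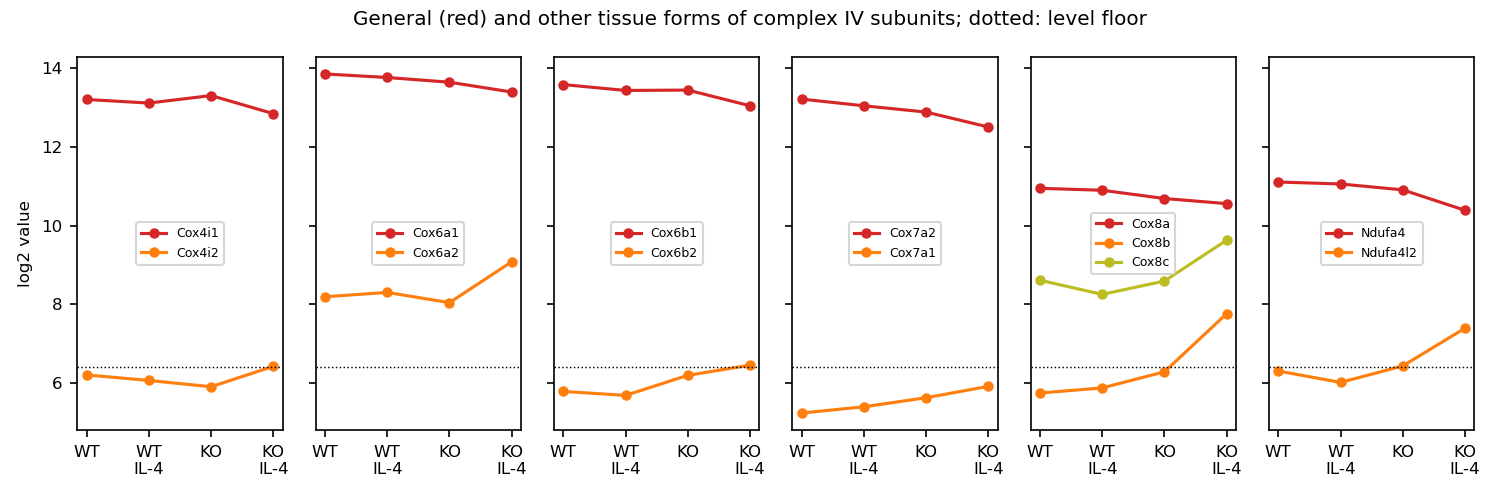
Log2 values (vertical axis) on the 4 arrays for general forms of complex IV subunits (red) and their other tissue forms (orange, and yellow-green for Cox8c), with the floor of 6.39 dotted; lines join the values of 1 probe set. Cox6a2, Cox8b, Cox8c and Ndufa4l2 read highest on the Dap12-KO array given IL-4 (9.08, 7.76, 9.63 and 7.39), where the general forms read lowest.

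With IL-4 in both genotypes, 81 of 88 genes were lower under the Dap12-KO label (92.0%), as were 65.8% of all genes and 91.3% of the 1424 genes of like level. The members had a median of −0.47, all genes −0.39 and the 1424 genes −0.57. The level-adjusted median was 0.08, and after cyclic loess the median was also 0.08. Of the 88 genes 3 were 2-fold higher (10.9% of all genes), Cox8b, Cox8c and Ndufa4l2, and 5 were 2-fold lower (17.6%). Both wild type values of Cox8b (5.74 and 5.87) and of Ndufa4l2 (6.30 and 6.01) lay under the floor. These genes entered only through the Dap12-KO arrays, where they were high, so their being higher follows in part from the floor. For Cox8c the probe set used gave 1.37 and its second probe set −1.24. The 5 were Ndufaf1 (−1.33), Ndufaf6 (−1.24), Cox7c (−1.06), Ndufaf4 (−1.05) and Sdhc (−1.01). They included 3 of the 8 assembly factors of complex I (37.5%), and 13 of 35 assembly factors outside the rule (37.1%) were also 2-fold lower. Level-adjusted, the same 5 differed by −0.69, −1.19, −0.73, −0.35 and −0.39. Sdhc read 11.12 and 10.11 in this comparison, but 10.04 and 9.86 on its second probe set. After cyclic loess 4 genes were 2-fold higher (12.6% of all genes), Cox6a2 joining the 3 named, and none 2-fold lower (5.33%). The 8 assembly factors had a level-adjusted median of −0.29, as had the single gene Cycs, with 7 of 8 factors below 0. The 35 outside the rule had −0.23, with 22 below 0. Of the 8, Ndufaf6 at −1.19 and Ndufaf5, which acts on Ndufs7, at −1.11 were the lowest. This comparison shares its wild type and Dap12-KO arrays with the others, so it is no independent view of the same genes.

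The IL-4 response under the Dap12-KO label minus that in wild type had a median of −0.37 over the 88 genes, −0.36 over all genes and −0.46 over the 1424, with a level-adjusted median of 0.10. The 3 genes 2-fold higher (8.15% of all genes) were Cox8b, Cox8c and Ndufa4l2, and the 3 lower (14.8%) were Cox7c, Ndufaf1 and Ndufaf7. Cox8b and Ndufa4l2 were under the floor on both wild type arrays, and the second probe set of Cox8c gave −0.65. After cyclic loess 4 were higher (8.9%) and none lower (5.58%), with a median of 0.15.

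**Figure D4:**
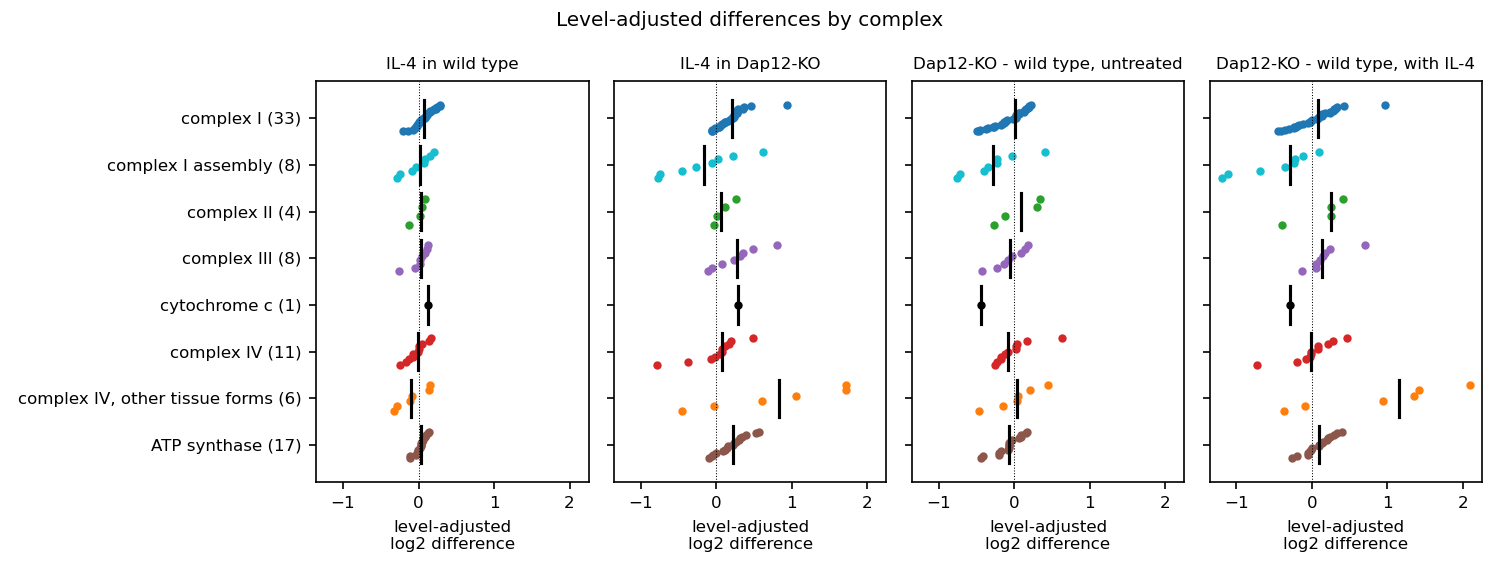
Level-adjusted log2 difference (horizontal axis) of each member above the floor, by complex (rows, number of genes in brackets), in 4 comparisons; points are genes and black bars medians. Complexes I to IV and ATP synthase have medians of −0.08 to 0.09 in the untreated genotype comparison, where the assembly factors have −0.29.

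A model could test only the IL-4 effect shared by the genotypes, with limma across all 12767 genes, genotype as a block and 1 residual degree of freedom. At an adjusted p of 0.05 by Benjamini-Hochberg none of the 88 genes rose (0.54% of all genes did) and none fell (1.1%). At an unadjusted p under 0.05 there were also 0 members, against 9.76% of all genes, and the smallest adjusted p of a member was 0.536. The standard error was 0.421 log2 units for every member and belongs to the IL-4 effect averaged over the genotypes. The fit gave all genes the same variance (its prior degrees of freedom were infinite). Its p-value therefore orders genes only by the size of that averaged effect. The 1 residual degree of freedom is the difference of the genotypes' IL-4 responses. The standard error therefore does not measure the precision of a difference in wild type. After cyclic loess its median over genes was 0.246. After cyclic loess and after quantile normalization limma called 0 of all genes, with 856 and 602 genes but no member at an unadjusted p under 0.05.

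How far a difference can be read depends on the probe set. Of the 50 members with more than 1 above the floor, 4 had probe sets that differed by 2-fold or more for IL-4 under the Dap12-KO label and 8 with IL-4 between genotypes. Ndufc2, an accessory subunit of complex I, gave −0.46, −0.65 and −0.42 for IL-4 under the Dap12-KO label on bright probe sets and went up on a dim one (6.72, 6.58, 6.87 and 8.25). Uqcrq gave −0.28 on its brightest and 1.35 on a dim one. The others of the 4 were Cox8c, with 1.04 and −0.87, and Ndufaf4, with −0.04 and −1.2. With IL-4 between genotypes Ndufaf4 gave −1.05 and −2.1. Atp5o, the stalk protein that holds the catalytic head, gave −0.41 and −1.12 for IL-4 under the Dap12-KO label, a range under 2-fold. Between genotypes with IL-4 it gave −0.39 and −1.54. With IL-4 between genotypes the probe sets of Atp5j2, a small membrane subunit of ATP synthase, ran from −0.57 to 0.54.

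Other mitochondrial genes show how the members compare with their surroundings. ND5 was the only subunit gene of mitochondrial DNA measured, and it read 12.56, 12.81, 13.53 and 12.65, highest on the untreated Dap12-KO array. Of 20 mitochondrial protein import genes 19 were lower when untreated Dap12-KO was set against wild type, with a median of −0.56 and a level-adjusted median of −0.46, and 2 were 2-fold lower; of all genes 47.3% were lower and 3.41% 2-fold lower. Chchd4, which traps and oxidises proteins in the space between the membranes, read 11.32, 11.32, 10.21 and 10.40, and Timm10, a chaperone of that space, 11.60, 11.63, 10.72 and 10.97. Of 76 mitochondrial ribosomal protein genes 69 were lower, with a median of −0.32 and a level-adjusted median of −0.25, and 1 was 2-fold lower, Mrpl52, at 11.82, 12.00, 10.75 and 10.94. Both wild type values of Chchd4, Timm10 and Mrpl52 were above both values under the Dap12-KO label, as for 31.8% of all genes. These genes were named for the size of their differences, so this is no separate support. The members' own level-adjusted median of −0.07 was nearer to that of the tricarboxylic acid cycle, −0.03 over 17 genes. Suclg2, a subunit of succinyl-CoA ligase, was 2-fold higher in that list, at 8.65, 8.78, 9.94 and 9.05. The 35 assembly factors outside the rule had −0.16, with none 2-fold changed, and the 17 carriers, uncoupling proteins and antioxidants −0.10, with none.

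The 17 regulators of mitochondrial biogenesis had a level-adjusted median of −0.13 in the untreated genotype comparison. Gabpb1, a subunit of the ETS factor GABP, read 9.29 and 9.21 in wild type and 7.81 and 7.60 under the Dap12-KO label, and was 2-fold lower. Pprc1, a coactivator of the NRF1 pathway, read 10.05, 10.06, 9.35 and 9.24. Ppargc1b, the coactivator PGC-1beta, read 8.72 and 9.75 in wild type without and with IL-4 and 8.18 and 8.86 under the Dap12-KO label. In wild type it was 2-fold higher with IL-4, which held for 1.21% of all genes. Sod2, the superoxide dismutase of the mitochondrial matrix, read 13.65 and 12.62 in wild type without and with IL-4, and 13.24 and 12.39 under the Dap12-KO label.

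**Figure D5:**
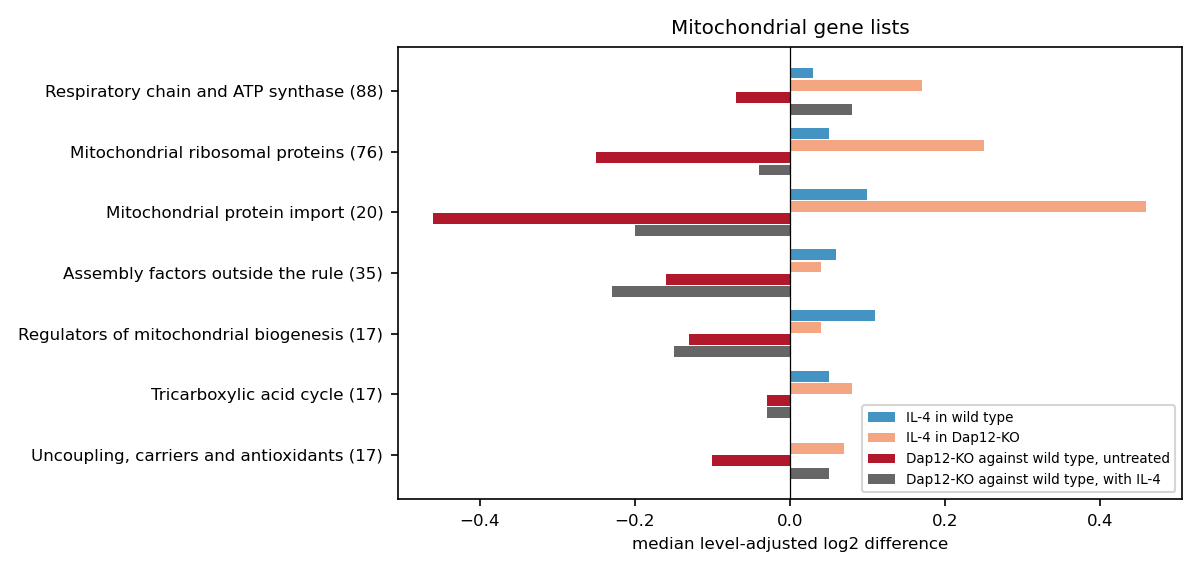
Median level-adjusted log2 difference (horizontal axis, bars from 0) of the 88 members and of 6 other lists of mitochondrial genes (rows, number of genes in brackets) in 4 comparisons. In the untreated genotype comparison protein import (−0.46) and mitochondrial ribosomal proteins (−0.25) lie lower than the members (−0.07).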

How the data were processed

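Gene expression was measured on 4 arrays, 1 per group, grouped by their titles. The deposited table holds 1 log2 value per probe set and array, which the authors obtained with RMA (version not given) according to the submitters' processing notes; per the labels' protocols RNA went through 2 cycles of amplification, which weights the 3' end. The table held 45101 probe sets, of which 34945 named 1 gene, 932 several and 9160 none. Symbols were updated through Entrez identifiers to the RefSeq table of GRCm38.p6. Depth has no counterpart here: no detection calls were used.

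For each of 5 comparisons the log2 difference, its level-adjusted form and counts at 2-fold were computed with Python 3.11.15, numpy 2.4.6 and pandas 2.3.3 (figures: matplotlib 3.10.9). limma 3.58.1 in R 4.3.3 gave the IL-4 fit and cyclic loess (3 iterations); the fit was tested on simulated data. Alternatives were other floors, thresholds (1.5-fold and 3-fold), scalings, 100 or 1000 neighbours in level, the median over probe sets, structural subunits only and other models.

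The members, the lists and the grouping by complex were chosen with earlier results of these data known. Named genes were the 3 highest and 3 lowest members by level-adjusted difference in each comparison, core subunits, complex II, Cycs, isoform sets, up to 6 members whose probe sets differ by 2-fold (largest first), and up to 4 genes of each list. Other members were named after their values were seen. Promoter motifs were chosen likewise. Cox7b was not analysed here.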

Additional observations from a re-analysis of the deposited data

Results flagged for a closer look

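Cox8c and Ndufa4l2 moved in opposite directions with IL-4 in the 2 genotypes, each by at least 0.25, a minimum chosen after the values were seen. For Cox8c the difference was −0.36 in wild type and 1.04 under the Dap12-KO label, so the responses differed by 1.39 log2 units (2.02 level-adjusted). Its second probe set gave −0.22 and −0.87, the same direction in both. For Ndufa4l2 the differences were −0.30 and 0.96, and the responses differed by 1.26 (0.88 level-adjusted). Both wild type values of Ndufa4l2 (6.30 and 6.01) lay under the floor of 6.39, and it entered through the Dap12-KO arrays (6.43 and 7.39). With 1 array per group neither difference of responses was tested, and both rest on the narrower IL-4 array labelled Dap12-KO.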

How the results depend on the processing

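No paired analysis was possible because each group has 1 array with no replicate number; the limma fit for IL-4 takes genotype as its block. Counts of members at 2-fold moved as follows. At 1.5-fold they were 14 for IL-4 under the Dap12-KO label, 3 for the untreated genotype comparison, 32 with IL-4 and 18 for the difference of responses, and at 3-fold 0, 0, 1 and 0. With the floor at the 75th percentile the last pair were 4 and 3. For IL-4 under the Dap12-KO label the count of 6 was 3 after cyclic loess and 3 with the median over probe sets. With IL-4 between genotypes the count of 8 was 4 after cyclic loess, 5 after quantile normalization, 14 after median centring and 5 with structural subunits only. After cyclic loess 9.79% of all genes were 2-fold higher and 5.91% lower for IL-4 under the Dap12-KO label. With IL-4 between genotypes these shares were 12.6% and 5.33%, and after quantile normalization 14.2% and 7.9%. For 1.5-fold, 3-fold, the other floor, median centring and the median over probe sets the share of all genes is not given here. Those counts are therefore not read as a result about the members. Median differences that use the IL-4 array labelled Dap12-KO turned sign with the scaling: for IL-4 under that label −0.36 became 0.20 (cyclic loess), 0.15 (quantile) and −0.47 (median centring), with IL-4 between genotypes −0.47 became 0.08, 0.08 and −0.62, and for the difference of responses −0.37 became 0.15, 0.11 and −0.50. The cause was not tested. Level-adjusted medians of the 88 members moved by less than their spread, but under quantile normalization that of the assembly factors for IL-4 under the Dap12-KO label went from −0.17 to −0.32 and that of the tissue forms from 0.83 to 1.14. limma called 0 members in its alternatives, which says little: the fits after cyclic loess, after quantile normalization, with no floor and without either IL-4 array called 0 of all genes too. With 1 array left out an arm holds a lone array, assumed to vary like the others. At an unadjusted p under 0.05 there were 9 members of 4537 genes without the wild type IL-4 array and 2 of 1088 with the median over probe sets, and 0 in the other alternatives.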
